A study of Mus musculus with 19 samples.

Results

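The transcripts of 10 acute-phase genes were followed across mouse liver tumours: the serum amyloid A genes Saa1, Saa2, Saa3 and Saa4, the orosomucoid genes Orm1, Orm2 and Orm3, lipocalin 2 (Lcn2), haptoglobin (Hp) and hemopexin (Hpx). They were taken by gene symbol from the 39179 gene identifiers of the deposited count table, and all 10 were found. Saa1 and Saa2 had been picked out by their values in 1 of these tumours, so the levels given here are a description and carry no test. The labels list 19 samples, of which 13 are liver tumours, 3 are control livers and 3 are high AAV control livers. Only 10 of the tumours, numbered 04 to 13, could be matched to a column of the table by number, and this match assumes that the number in a title is the library number. They form 1 group with 1 library per tumour, and control livers were not analysed here, so that no level is set against non-tumour liver.

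All mice were male, heterozygous for Ctnnb1tm1Mmt, a β-catenin allele that Cre recombinase turns into a stabilised form, and homozygous for Gt(ROSA)26Sortm1(MYC)Djmy, a human MYC transgene that Cre switches on. The tumour mice, adults when injected, had received AAV8.TBG.PI.Cre.rBG at 640000000 genome copies per mouse, an adeno-associated virus whose TBG promoter limits Cre to hepatocytes. The control mice shared both alleles and that dose, and the high AAV controls received 200000000000 genome copies. Whole end-stage tumours were sequenced, so stroma, blood and immune cells were part of each library, and a change in the number of cells of a type and a change in RNA per cell cannot be told apart. Nothing in the labels says that the tumours came from separate animals. The column names carry 5 different tags over the 10 tumours, and tumours 05 and 06 share a tag. If a tag stands for a mouse, these tumours are not independent.

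The acute-phase response is the liver's change in plasma protein synthesis during inflammation or injury. Interleukin 6 acts on hepatocytes through its receptor and the transcription factor STAT3, interleukin 1 acts through NF-kB, and C/EBP factors bind the promoters of many of the genes that respond. Saa1 and Saa2 encode serum amyloid A, an apolipoprotein of high-density lipoprotein and the classic strongly inducible acute-phase protein in mice, Saa3 is made largely outside hepatocytes, and Saa4 is expressed constitutively. Orosomucoids bind drugs and lipids in plasma, lipocalin 2 withholds iron from bacteria by binding their siderophores, haptoglobin binds free haemoglobin and hemopexin binds free haem.

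The genes lie in 2 clusters or alone. In the GRCm38.p6 assembly (RefSeq), Saa3 (chr7:46711998-46719615), Saa4 (chr7:46727992-46732603), Saa1 (chr7:46740497-46743181) and Saa2 (chr7:46751833-46754313) are neighbours on chromosome 7, which also holds Hpx (chr7:105591611-105600116). Orm1 (chr4:63344556-63348163), Orm3 (chr4:63356069-63359506) and Orm2 (chr4:63362449-63365877) are neighbours on chromosome 4. Lcn2 is at chr2:32384637-32387739 and Hp at chr8:109575128-109579172. The RefSeq promoter table held a window for 8 of the 10 genes, all but Orm1 and Hp. The 250 bases before the start site that this table uses are shown for 6 of them, chosen to include the genes with the largest (Saa2) and the smallest (Hpx) SD between tumours and the copies Saa1 and Saa2, and Orm2 and Orm3. For Saa1 and Orm3, and for Saa3, whose window is not shown, that start site lies inside the gene's full annotated span. Each sequence runs 5′ to 3′ on the gene's own strand. Capitals mark matches to TTGCNNAA or its reverse complement TTNNGCAA, the core letters that C/EBP factors bind, and, in Orm2 and Orm3, TATAAA.
Saa1: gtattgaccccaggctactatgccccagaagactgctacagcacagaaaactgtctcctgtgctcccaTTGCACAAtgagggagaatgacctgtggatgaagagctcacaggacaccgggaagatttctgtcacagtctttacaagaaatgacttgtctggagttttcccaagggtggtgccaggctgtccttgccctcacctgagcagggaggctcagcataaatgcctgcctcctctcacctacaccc
Saa2: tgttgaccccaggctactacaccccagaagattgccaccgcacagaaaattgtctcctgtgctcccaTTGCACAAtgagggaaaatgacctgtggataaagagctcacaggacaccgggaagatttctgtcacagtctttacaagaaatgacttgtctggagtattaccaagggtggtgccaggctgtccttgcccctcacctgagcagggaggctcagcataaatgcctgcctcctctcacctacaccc
Orm2: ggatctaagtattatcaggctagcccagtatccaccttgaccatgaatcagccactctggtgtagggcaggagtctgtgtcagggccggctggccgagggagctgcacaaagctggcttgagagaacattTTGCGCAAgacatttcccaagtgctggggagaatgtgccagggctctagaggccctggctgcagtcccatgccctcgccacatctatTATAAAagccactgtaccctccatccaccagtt
Orm3: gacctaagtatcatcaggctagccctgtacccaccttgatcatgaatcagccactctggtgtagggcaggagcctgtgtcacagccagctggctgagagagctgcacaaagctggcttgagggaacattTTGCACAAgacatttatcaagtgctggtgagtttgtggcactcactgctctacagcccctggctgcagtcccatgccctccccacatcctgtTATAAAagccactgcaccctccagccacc
Lcn2: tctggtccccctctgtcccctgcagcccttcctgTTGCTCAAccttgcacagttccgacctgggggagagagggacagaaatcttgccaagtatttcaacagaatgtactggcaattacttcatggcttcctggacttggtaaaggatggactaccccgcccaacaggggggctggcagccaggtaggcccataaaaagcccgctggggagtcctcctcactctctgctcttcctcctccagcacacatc
Hpx: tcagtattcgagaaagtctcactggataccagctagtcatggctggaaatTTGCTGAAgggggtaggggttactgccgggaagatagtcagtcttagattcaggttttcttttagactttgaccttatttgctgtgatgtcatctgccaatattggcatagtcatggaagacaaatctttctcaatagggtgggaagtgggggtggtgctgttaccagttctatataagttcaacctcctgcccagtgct
These windows are chr7:46742981-46743230 (minus strand) for Saa1, chr7:46751583-46751832 (plus strand) for Saa2, chr4:63362199-63362448 (plus strand) for Orm2, chr4:63355908-63356157 (plus strand) for Orm3, chr2:32387740-32387989 (minus strand) for Lcn2 and chr7:105600117-105600366 (minus strand) for Hpx.

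The windows of Saa1 and Saa2 were 94.8% identical and those of Orm2 and Orm3 85.5% identical, whereas Saa1 shared 48.5% with Saa3 and 46.3% with Saa4. The C/EBP letters were present in 8 of 8 windows of the acute-phase genes, where 9.56% of all 32851 RefSeq windows of the same length hold them. In Saa1 and Saa2 the match was TTGCACAA, 182 and 183 bases before the start site, and in Saa3 it was TTATGCAA at 99 bases. Saa4 had 2 matches, TTGCCAAA at 245 and TTGAGCAA at 52 bases. Orm2 held TTGCGCAA at 120 bases and Orm3 TTGCACAA at 121 bases, Lcn2 TTGCTCAA at 216 bases and Hpx TTGCTGAA at 200 bases. The match did not separate the genes that varied most between tumours from those that varied least, since Saa4 and Hpx held it as well. None of the 8 windows held TTCNNNGAA, the letters of a STAT site (7.02% of all windows), the NF-kB decamer (3.90%) or CTGGGA, the core of an interleukin 6 response element (27.0%), on either strand. TATAAA on the gene's strand was found in Orm2 and Orm3, at 33 and 29 bases, against 7.59% of all windows. These motifs were chosen after the sequences had been seen, related windows such as those of Saa1 and Saa2 are not separate observations, and a match is not a measured binding site.

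Levels are given as CPM, a gene's counts per 1000000 counts in a library after TMM scaling, and spread as the SD of log2 CPM over tumours. The libraries held 11687034 to 36964427 gene counts, at which 3 counts correspond to 0.0812 to 0.257 CPM. Tumour 06 had the highest level of 9 of the 10 genes, where 7.48% of the 12462 genes that passed a filter on low counts were highest in tumour 06. The exception was Saa4. Of the 10 genes, 8 passed the filter (all but Saa3 and Orm3) and 7 of those 8 were highest in tumour 06. Against the median of the other 9 tumours, tumour 06 was at least 2-fold higher for 9 of the 10 genes (3.09% of all genes) and at least 4-fold higher for 7 (0.562%). The median of this ratio was 11.9 over the 10 genes and 1.00 over all 12462. Tumour 10 was lowest for 6 of the 10 genes (7.13% of all genes), tumour 07 for 3 (15.4%) and tumour 09 for 1 (12.7%). An SD above 1 log2 unit was found for 7 of the 10 genes (5 of the 8 that passed the filter), against 5.18% of all genes, and for 6 of the 10 when tumour 06 was left out (5.49% of all genes). The median SD was 1.69 over the 10 genes and 0.33 over all genes. Together the 10 genes held 0.377% (tumour 07) to 0.775% (tumour 12) of the gene counts in 9 tumours and 2.08% in tumour 06.

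**Figure D1:**
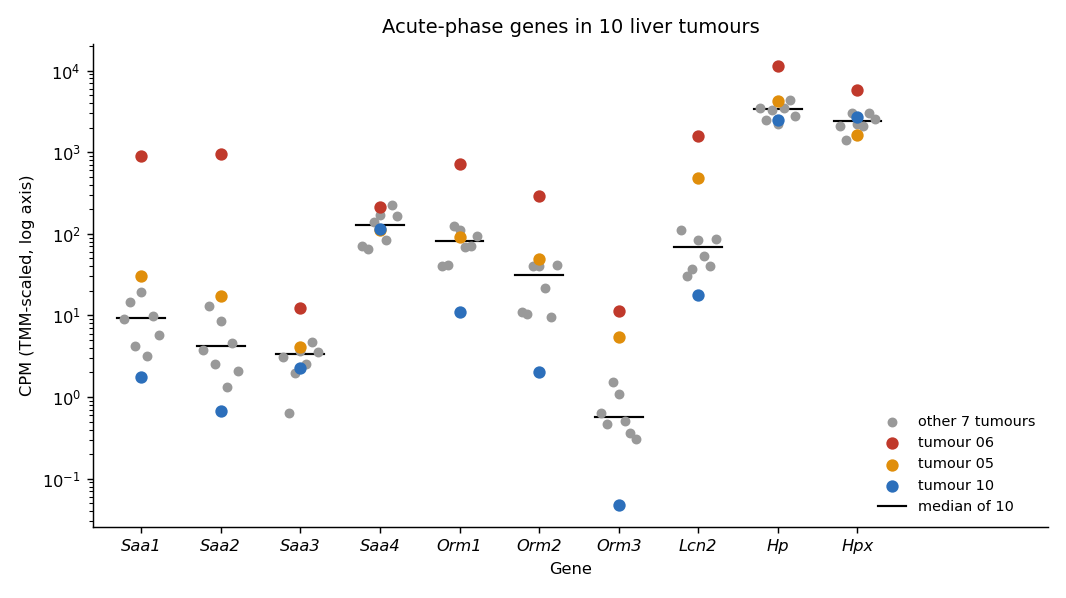
CPM (TMM-scaled, log axis) of each of the 10 genes in each of the 10 tumours. Points are tumours, with tumours 05, 06 and 10 in colour, and black lines are medians. Tumour 06 lies highest for every gene but Saa4, by 29.2-fold over the next tumour for Saa1 and by 1.90-fold for Hpx.

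Saa1 and Saa2 had the widest range. Saa1 was at 892 CPM in tumour 06, 30.6 in tumour 05, 19.6 in 09, 14.8 in 07, 9.73 in 12, 8.91 in 04, 5.72 in 13, 4.25 in 08, 3.15 in 11 and 1.77 in 10. Tumour 06 thus stood 29.2-fold above the next tumour and 100-fold above the median of the other 9, while those 9 spanned 17.3-fold among themselves. Saa2 was at 941 CPM in tumour 06, 17.4 in 05, 13.0 in 07, 8.44 in 09, 4.63 in 12, 3.79 in 04, 2.51 in 08, 2.10 in 13, 1.32 in 11 and 0.669 in 10. Its lead in tumour 06 was 54.0-fold over the next tumour and 248-fold over the median of the others, and its full range was 1407-fold. Both genes followed nearly the same order, with tumours 05, 07 and 09 next after 06 and tumours 10 and 11 at the foot. The SD of log2 CPM was 2.48 for Saa1 and 2.87 for Saa2 (n = 10), larger than that of 99.9% of all genes, and 1.30 and 1.49 without tumour 06. Counting error was small beside these gaps: the exact Poisson 95% interval of Saa1 ran from 27.9 to 33.4 CPM in tumour 05 and from 878 to 906 CPM in tumour 06, although such intervals cover counting error only.

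The other serum amyloid genes ranged far less. Saa3 rested on 7 to 205 counts. Its level reached 12.4 CPM in tumour 06 and lay between 0.646 (tumour 07) and 4.70 CPM (tumour 12) in the others, with a median over all tumours of 3.35 CPM, so tumour 06 was 4.03-fold above the median of the others and 2.65-fold above tumour 12. For 7 of its 9 pairs of neighbours in the order of levels, the counting intervals overlapped. Saa4 was at 223 CPM in tumour 12, 212 in 06, 170 in 09, 164 in 13, 139 in 08, 116 in 10, 112 in 05, 83.0 in 11, 70.0 in 04 and 65.2 in 07. Tumours 12 and 06 differed by 0.949-fold (06 over 12), and the whole range was 3.42-fold with an SD of 0.63. Tumour 05, second highest for Saa1 and Saa2, was in place 7 for Saa4.

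All 3 orosomucoid genes were highest in tumour 06 and lowest in tumour 10. Orm1 was at 713 CPM in tumour 06, 124 in 08, 113 in 09, 94.6 in 13, 90.3 in 05, 70.6 in 12, 68.1 in 11, 41.5 in 07, 39.9 in 04 and 11.0 in 10. Tumour 06 was 5.77-fold above tumour 08 and 10.1-fold above the median of the others, and tumour 10 was itself well below the rest. Orm2 was at 294 CPM in tumour 06, 49.0 in 05, 41.7 in 13, 40.8 in 08, 40.5 in 09, 21.4 in 11, 11.0 in 04, 10.4 in 07, 9.60 in 12 and 2.01 in 10, an SD of 1.90 with tumour 06 and 1.49 without it. Tumours 05, 13, 08 and 09 were close together for Orm2, and its counting intervals overlapped for 4 of 9 neighbouring pairs. Orm3 was scarce, at 11.3 CPM (186 counts) in tumour 06, 5.42 (85 counts) in 05, 1.55 (32 counts) in 08, 1.08 (17 counts) in 09 and 0.632 CPM or less (1 to 12 counts) in the other 6. Only tumours 06 and 05 stood clear of the remainder. With 1 count in tumour 10, no ratio of highest to lowest is given for Orm3.

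Lcn2 was the gene for which tumour 05 came nearest to tumour 06 among those that passed the filter and varied by more than 1 log2 unit. It was at 1558 CPM in tumour 06, 488 in 05, 110 in 04, 86.8 in 13, 83.7 in 09, 53.8 in 11, 40.0 in 12, 37.0 in 08, 30.7 in 07 and 18.0 in 10. Tumour 06 was 29.0-fold above the median of the other 9 and tumour 05 was 10.4-fold above the median of the 8 tumours other than 05 and 06. The SD was 1.95 over all tumours, 1.37 without tumour 06 and 0.88 without both tumours that carry its tag. Across the 10 genes, tumour 05 was at least 2-fold above the median of those 8 tumours for 5 (7.17% of all genes): Saa1 (4.18-fold), Saa2 (5.53-fold), Orm2 (3.02-fold), Orm3 (11.2-fold) and Lcn2. With tumour 06 left out, tumour 05 was the highest for these same 5 genes, against 21.0% of all genes.

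Hp and Hpx, the plasma scavengers of haemoglobin and haem, were abundant in every tumour. Hp was at 11395 CPM in tumour 06, 4419 in 12, 4276 in 05, 3491 in 11, 3461 in 04, 3284 in 08, 2780 in 13, 2496 in 07, 2462 in 10 and 2241 in 09. The 9 tumours other than 06 lay within 1.97-fold of each other, and tumour 06 was 2.58-fold above the highest of them. Hpx was at 5739 CPM in tumour 06, 3020 in 12, 3013 in 08, 2691 in 10, 2584 in 13, 2185 in 09, 2111 in 11, 2078 in 04, 1636 in 05 and 1393 in 07. The other 9 spanned 2.17-fold, tumour 06 was 1.90-fold above tumour 12, and tumour 05 was in place 9 of 10. The SDs of 0.68 for Hp and 0.56 for Hpx fell to 0.35 and 0.38 without tumour 06, near the median of 0.33 over all genes. Tumour 10, lowest for 6 of the genes, was in place 4 for Hpx.

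Per length of the annotated transcript (RPKM, CPM per kilobase), the order of the genes in tumour 06 was not that of the others. Taking the median over the other 9 tumours, Hp was at 2439 RPKM and Hpx at 1455, followed by Orm1 at 85.6, Lcn2 at 58.8, Saa4 at 54.7, Orm2 at 27.6, Saa1 at 11.8, Saa2 at 5.81, Saa3 at 3.07 and Orm3 at 0.624. In tumour 06 Hp (8466 RPKM) and Hpx (3821) were still first, and Lcn2 (1702), Saa2 (1443), Saa1 (1178) and Orm1 (865) followed, ahead of Orm2 (379) and then Saa4, Orm3 (14.0) and Saa3 (12.4). Saa2 was thus in place 8 of 10 in the other tumours and in place 4 in tumour 06. Hp and Hpx made up 88.1% (tumour 05) to 97.1% (tumour 10) of the summed CPM of the 10 genes outside tumour 06 and 78.7% within it.

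The balance between neighbouring copies also differed between tumours. Saa1 held 48.7% of the summed counts of Saa1 and Saa2 in tumour 06 (Wilson 95% interval 48.1 to 49.2%, 30202 counts) and 53.2% in tumour 07 (47.5 to 58.7%, 301 counts). In the other 8 tumours it held 62.9% (tumour 08) to 73.2% (tumour 13). The interval of tumour 06 overlapped none of the intervals of these 8, of which that of tumour 05 was 60.2 to 67.1% on 752 counts. The interval of tumour 07 overlapped that of tumour 08 (54.6 to 70.4%, 140 counts). Tumour 07, whose Saa1 and Saa2 sum of 27.8 CPM was below those of tumours 05 and 09, had a share like that of tumour 06 at 1833 CPM, so the share did not follow the level alone. Of the orosomucoid counts, Orm1 held 62.4% (tumour 05) to 87.6% (tumour 12), Orm2 11.9% (tumour 12) to 33.8% (tumour 05) and Orm3 0.225% (tumour 13) to 3.75% (tumour 05). In tumour 06 these shares were 70.1%, 28.8% and 1.11%, inside the range of the others, so all 3 orosomucoid genes stood high there together. How reads that fit more than 1 copy were counted bears on these shares. Of all 36-base windows of the annotated transcript, 78.7% in Saa1 and 77.3% in Saa2 occurred in no other gene's transcripts, as did 69.4% in Orm1, 68.2% in Orm2 and 93.3% in Orm3, and all windows of Lcn2, Hp and Hpx. Alignments reported as not unique made up 45.4 to 57.9% of the table's alignments per tumour, so part of the reads of Saa1, Saa2, Orm1 and Orm2 may be missing from their counts. This percentage was largest in tumours 07 (57.9%) and 06 (53.0%), which also had the lowest Saa1 shares. It was 45.4 to 52.1% in the others, and its bearing on the Saa1 share was not tested.

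**Figure D2:**
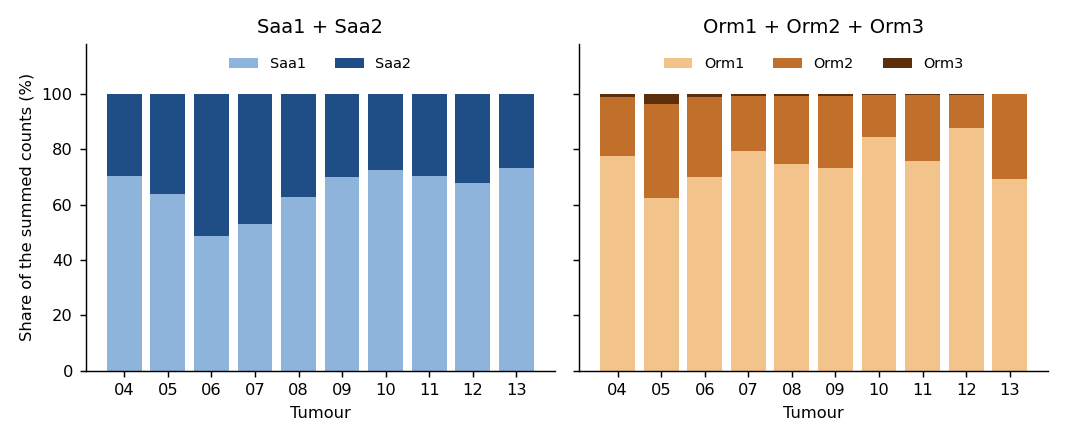
Share of the summed counts (%, stacked bars from 0 to 100) held by Saa1 and Saa2 (left) and by Orm1, Orm2 and Orm3 (right) in each tumour. Saa1 falls to 48.7% in tumour 06 and 53.2% in tumour 07 and is at 62.9% or more elsewhere, and Orm3 is largest in tumour 05 at 3.75%.

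Correlations between these genes across tumours depended on tumour 06 to different degrees and are given as a description (Pearson's r of log2 CPM over 10 tumours, then over the 9 without tumour 06). The sum of Saa1 and Saa2 went with Lcn2 at r = 0.86 and 0.65, and with the orosomucoid sum at 0.80 and 0.50. With Hp it went at 0.80 and 0.17, and with Hpx at 0.47 and -0.62. Lcn2 and Hpx gave 0.40 and -0.40. Saa4 and Hpx gave 0.73 and 0.70. Outside tumour 06, the sign for Hpx with Saa1 and Saa2 and with Lcn2 was thus negative, while Saa4 and Hpx kept their value. All these values rest on 9 or 10 libraries, of which some share a tag.

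The other genes with the closest pattern were sought among all genes that passed the filter. For the Saa1 and Saa2 sum these were Ddx21, an RNA helicase of ribosome production (r = 0.94), the 3 fibrinogen chain genes Fgb (0.93), Fgg (0.92) and Fga (0.92), and Nol8 (0.92). Fga reached 17172 CPM in tumour 06 against a median over all tumours of 2120, Fgb 12830 against 1811 and Fgg 9832 against 1352. Without tumour 06, r was 0.88 for Ddx21, 0.78 for Fgb and Fgg, 0.76 for Fga and 0.66 for Nol8. For Hp, Serpina10 (0.94) and Itih4 (0.90) were among the closest, for Hpx the closest were Gm7332 (0.91), Cog8 (0.88) and the angiotensinogen gene Agt (0.87), and for Lcn2 they were Lsg1 (0.97), Exoc6b (0.96) and Hsp25-ps1 (0.95). For the orosomucoid sum they were Tubb5 (0.92), Rfx3 (0.92) and Slc39a10 (0.90), and for Saa3 Afdn (0.95), Nup58 (0.94) and Fkbp5 (0.93). The rankings changed without tumour 06. Exoc6b was still among the 3 closest to Lcn2, whereas no other gene named here was among the closest for its gene or sum, with places among all genes from 5 (Rfx3 for the orosomucoid sum), 8 (Tubb5) and 10 (Afdn for Saa3) down to 421 (Itih4 for Hp), 441 (Agt for Hpx) and 704 (Nol8 for the Saa1 and Saa2 sum). With 10 tumours and 12462 genes, high values of r arise among many genes.

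Of 24 other positive acute-phase genes that passed the filter (25 listed), 17 were highest in tumour 06 (7.48% of all genes) and 17 were at least 2-fold above the median of the other 9 tumours there (3.09% of all genes), with a median ratio of 4.21 beside 1.00 over all genes. None was at least 2-fold below, against 2.96% of all genes. The 3 largest ratios were those of Lrg1, which encodes leucine-rich alpha-2-glycoprotein (23.1-fold, 2500 CPM in tumour 06), Serpina3n, a protease inhibitor gene (18.0-fold, 3936 CPM), and Apcs, the serum amyloid P gene (14.5-fold, 134 CPM). The smallest was that of Mbl2, mannose-binding lectin (0.72-fold, 215 CPM). Lrg1 was at 850 CPM in tumour 05 and at 51.0 (tumour 07) to 226 CPM (tumour 04) in the other 8, and Serpina3n was at 1383 CPM in tumour 05 and at 120 (tumour 10) to 409 CPM (tumour 09). Both thus had the order of Lcn2 at the top, tumour 06 and then tumour 05, while Apcs was at 22.2 CPM in tumour 05, below the 26.2 CPM of tumour 04. Of the 17 genes highest in tumour 06, 11 were second highest in tumour 05, against 36.3% of all genes that were highest in tumour 06. Tumour 05 was the higher of the pair for the metallothionein genes Mt1 (2058 CPM, against 1344 in tumour 06) and Mt2 (1177 against 576), which were picked after their values were seen, as was Hamp, the hepcidin gene, at 50.1 CPM in tumour 06 and 3.44 CPM, its lowest, in tumour 05.

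Of 9 genes of plasma proteins that fall in the acute phase, 1 was highest in tumour 06 (Ahsg, the fetuin A gene, at 10724 CPM, against 7.48% of all genes), none was at least 2-fold above the median of the others (3.09%) and 1 was at least 2-fold below, against 2.96% of all genes. That was Serpina6, corticosteroid-binding globulin, at 319 CPM in tumour 06 and 311 in tumour 05 and at 615 to 1236 CPM in the other 8. The share of all genes that set this pair apart from the other 8 was not computed. Gc, the vitamin D binding protein gene, was at 4538 CPM in tumour 06 (1.24-fold) and Trf, the transferrin gene, at 2745 CPM. The median ratio of the 9 genes was 1.05.

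**Figure D3:**
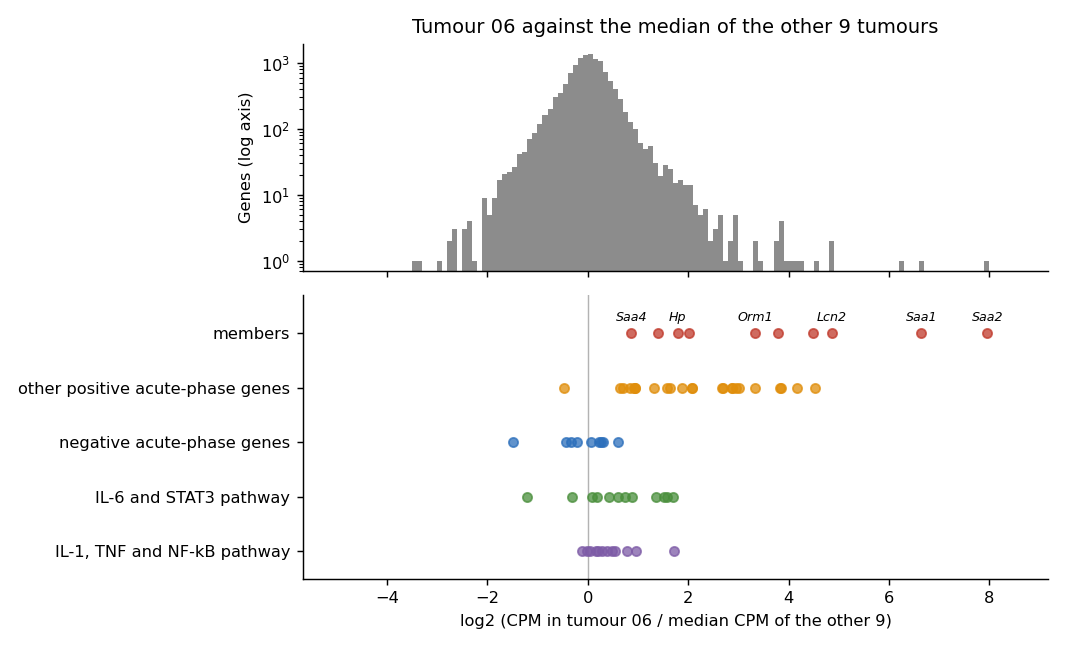
Top: number of genes (log axis) by log2 of the ratio of CPM in tumour 06 to the median CPM of the other 9 tumours, for the 12462 genes that passed the filter. Bottom: the same ratio for each of the 10 acute-phase genes (members, Saa3 and Orm3 included although they did not pass) and for the passing genes of 4 lists, 1 point per gene. The members run from 1.83-fold (Saa4) to 248-fold (Saa2), and the negative acute-phase genes from 0.36-fold (Serpina6) to 1.53-fold (Ahsg).

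Of the interleukin 6 and STAT3 pathway, 12 of 14 genes passed the filter. In tumour 06, 1 of them was highest (Cebpd, against 7.48% of all genes), 4 were at least 2-fold above the median of the others (3.09%) and 1 was at least 2-fold below (2.96%), with a median ratio of 1.60. With tumour 06 left out, 8 of the 12 were highest in tumour 05, against 21.0% of all genes. Stat3 was at 374 CPM in tumour 05 and 367 in tumour 06, 209 in 09 and 106 to 169 in the other 7. Socs3, the feedback inhibitor of this pathway, was at 140 CPM in tumour 05, 81.1 in 07, 73.7 in 06 and 58.2 in 09, and at 13.7 to 37.2 in the other 6. Cebpb, a C/EBP factor, was at 498 CPM in tumour 05 and 271 in 06, with 73.4 to 195 elsewhere. Cebpd, another, was at 31.7 CPM in tumour 06 and 30.1 in 05, with 3.62 to 16.6 elsewhere. The receptor chain gene Il6ra was at 51.7 CPM in tumour 05, 34.3 in 04, 28.2 in 08 and 26.2 in 06, and its partner Il6st at 191 CPM in 05, 163 in 06 and 160 in 09. The oncostatin M receptor gene Osmr was 3.01-fold above the median of the others in tumour 06, at 8.13 CPM, but highest in tumour 09 at 13.6 CPM. Lifr, the leukaemia inhibitory factor receptor gene, had the smallest ratio, 0.43-fold, at 43.7 CPM. Il6 itself did not pass the filter and was at 1.65 CPM or less in every tumour. Of the 12 genes, 11 (all but Cebpd) were higher in tumour 05 than in tumour 06, against 52.0% of all genes. None of the 8 acute-phase genes that passed the filter was, and of the 24 other positive acute-phase genes only Mt1 and Mt2 were. Some of the 11 were near ties, such as Stat3 and Tyk2 (43.3 CPM in tumour 05 and 43.2 in 06).

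Of the interleukin 1, TNF and NF-kB pathway, 12 of 17 genes passed the filter, 2 were highest in tumour 06 (7.48% of all genes), 1 was at least 2-fold above the median of the others (3.09%) and none was at least 2-fold below (2.96%), with a median ratio of 1.26. The 1 gene was Cxcl1, a neutrophil-attracting chemokine gene, at 5.83 CPM in tumour 06 but 6.71 in tumour 08. The receptor gene Tnfrsf1a was 1.94-fold above the median of the others at 252 CPM, its highest, and Nfkbiz, a cofactor of NF-kB, 1.72-fold at 22.6 CPM, with 23.4 CPM in tumour 05. Nfkbia, the inhibitor gene, was at 60.9 CPM in tumour 06 and 75.7 in tumour 05, and the receptor gene Il1r1 was at 151 CPM in tumour 06 and 157 in tumour 04. Tnfaip3 had the smallest ratio, 0.93-fold. Of these 12 genes, 7 were higher in tumour 05 than in tumour 06, near the 52.0% of all genes. The genes of this list that did not pass were scarce, and each was above the median of the others in tumour 06. Il1b was at 5.64 CPM there (4.26-fold) but at 9.32 CPM in tumour 07. Il1a (3.44-fold), Tnf (2.37-fold), Ccl2 (2.11-fold) and Cxcl2 (12.5-fold) were at 1.76 CPM or less in tumour 06 and highest in tumour 09.

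Of the receptors, ligands and clearance partners of these proteins, 10 of 14 genes passed the filter, 2 were highest in tumour 06 (Cd163 and Lrp1, against 7.48% of all genes) and 2 were at least 2-fold above the median of the others (Cd163 and Hmox1, against 3.09%), with a median ratio of 1.00. Hmox1, the haem-degrading enzyme, was at 792 CPM in tumour 05, 396 in tumour 06 and 183 in tumour 09, and at 34.3 to 85.3 in the other 7. Hpx, which delivers haem, was in place 9 of 10 in tumour 05, where Hmox1 was highest. Cd163, the macrophage receptor for haptoglobin bound to haemoglobin, was scarce, at 6.80 CPM in tumour 06, 5.84 in 09 and 1.28 in 05. Lrp1, the receptor for hemopexin bound to haem, was at 1181 CPM in tumour 06 and 1153 in tumour 11, with 657 to 895 elsewhere. The lipocalin 2 receptor gene Slc22a17 did not pass the filter, with 1.57 CPM at most, and Scarb1, a receptor for high-density lipoprotein, had the smallest ratio, 0.83-fold.

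**Figure D4:**
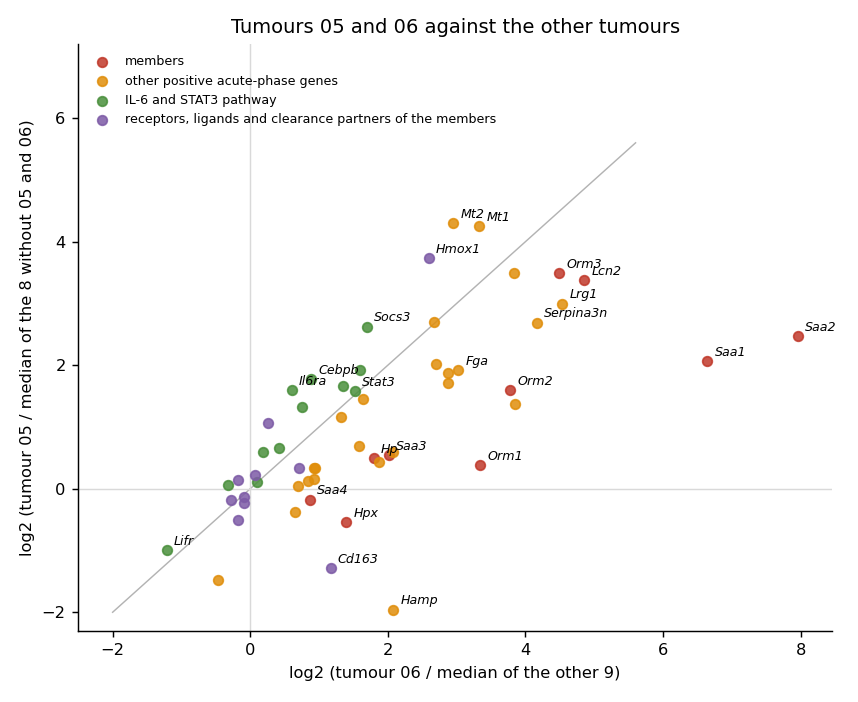
Each point is a gene, placed by log2 of the ratio of tumour 06 to the median of the other 9 tumours (x axis) and of tumour 05 to the median of the 8 tumours other than 05 and 06 (y axis), with the line of equal ratios in grey. Saa1, Saa2, Orm1 and Orm2 lie far below the line, Lcn2 and Orm3 lie nearer to it, and Hmox1, Mt1, Mt2, Socs3 and Cebpb lie above it.

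Markers of other cells were read beside these levels. The summed level of the 6 hepatocyte markers was 35119 CPM in tumour 06 and 28429 (tumour 05) to 47732 CPM (tumour 12) in the others, and Alb made up 17070 CPM of the sum in tumour 06. Among them Cps1 was at 4.53 CPM in tumour 05, its lowest, and highest in tumour 12 at 218 CPM. In tumour 06 it was at 125 CPM, 5.65-fold above the median of the others. Lcn2, Hp and Saa3 are also made by neutrophils or macrophages. The summed level of 10 neutrophil markers was 35.9 CPM in tumour 06, 17.6 in 09, 12.6 in 07 and 11.7 in 05, and 2.10 to 5.99 CPM in the other 6. Of the 10, 7 were highest in tumour 06 and 3 (Csf3r, Ltf and Ly6g) in tumour 09. The share of all genes highest in tumour 06, 7.48%, is over genes that passed the filter, and none of the 10 did. Of them, 3 were below 1 CPM in every tumour and Ly6g, a defining marker, was at 0.127 CPM or less. Of the rest, S100a8 (7.16 CPM) and S100a9 (16.7 CPM) were the most abundant in tumour 06. The summed level of 8 macrophage and Kupffer cell markers was 254 CPM in tumour 06 and 90.4 to 223 CPM in the others. Clec4f, Vsig4 and C1qa were highest in tumour 06, Adgre1 and Csf1r in 07, Marco and Timd4 in 09 and Cd68 in 05. Tumours 06, 09 and 07 had the largest sums of both the neutrophil and the macrophage markers. The part of these cells in the levels of the 10 genes was not tested. Red blood cell markers summed to 6181 CPM in tumour 07 and 278 CPM in tumour 06, and stellate cell, endothelial, cholangiocyte, adipocyte and pancreatic acinar markers were not highest in tumour 06.

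Tumours 05 and 06 carry the same tag and still differed widely. The ratio of tumour 06 to tumour 05 was 29.2 for Saa1, 54.0 for Saa2, 7.89 for Orm1, 5.99 for Orm2, 2.08 for Orm3, 3.20 for Lcn2, 2.66 for Hp, 3.51 for Hpx, 3.05 for Saa3 and 1.88 for Saa4. Over the 6 pairs of tumours that share a tag, the median absolute difference of log2 CPM was 1.68 for Saa1 and 0.90 for Lcn2, and over the 39 other pairs it was 1.76 and 1.58. For Saa4 the pairs with the same tag differed by 0.95 and the others by 0.68.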

How the data were processed

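Counts per gene were deposited by the authors as 1 table, not normalised, from polyadenylated RNA of whole tumours. The submitters' processing notes name GRCm38, TopHat2 and HTSeq without a role, whereas the study's methods name other programs and another version of the mouse genome. The annotation and strand setting behind these counts are not given in the sources used here. The table has 19 columns. Of these, 10 were matched to a tumour by number and 9 were not used, so the planned comparisons with control livers were not analysed here. The 5 summary lines stayed out of all totals.

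Genes were filtered with edgeR 4.0.16 (R 4.3.3, filterByExpr, 1 group), which left 12462, and scaled with TMM factors. Log2 CPM used a prior count of 2. Ratios were taken on CPM without a prior count. DESeq2 1.42.0 gave an alternative scaling and transformation. Symbols came by stable identifier from GENCODE (34199 of 39179, 87.3%) with the exon length of the canonical transcript, and positions and promoter windows came from RefSeq GRCm38.p6. Motifs, identities and 36-base windows were computed with Python 3.11.15 and biopython 1.88, the windows as exact matches over 481956 transcripts. Intervals (exact Poisson, Wilson) cover counting error only.

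The 10 genes and all lists were chosen with earlier results of these data known, so all values are descriptions, gap ratios included, and no comparison was tested. All 10 genes are named, and of each list the 3 largest and the smallest ratio of tumour 06 to the others among genes that passed the filter, plus a set of receptor and regulator genes whatever their values. Of the genes closest in pattern, 1 is not reported here. The computation of ratios was tested on simulated counts before use. Each choice of scaling, prior count, filter and tumours was varied.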

Additional observations from a re-analysis of the deposited data

Results flagged for a closer look

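A gap ratio, the distance from an extreme tumour to its nearest neighbour divided by the whole range of log2 CPM, was above the 95% critical value for 10 samples in 4 of 12 features: Saa1 (0.546), Saa2 (0.560), their sum (0.553) and Hp (0.582). In each, tumour 06 was the highest. Chance gives such a ratio in about 1 of 20 groups, but the genes were chosen with these values known, so the ratios are a description and not a test, and Saa1, Saa2 and their sum are not separate observations. Hp had the largest ratio although its level in tumour 06 was only 2.58-fold above the next tumour, since the other 9 tumours lay within 1.97-fold. The ratios of the 3 genes, the sum not recomputed, stayed above the critical value under DESeq2 size factors (0.547 for Saa1, 0.561 for Saa2, 0.563 for Hp), with total counts alone and with a prior count of 0.5, alternatives chosen after the data were seen.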

How the results depend on the processing

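Of 177 values recomputed under an alternative, 156 stayed within 1.5 times of the reported value or on its side of the limit and 21 moved. The count of genes highest in tumour 06 was the same under every scaling, prior count and transformation tried, and was 6 of 7 features when the copies were summed. Without tumour 06 the SD was 1.30 for Saa1, 1.49 for Saa2 and 0.352 for Hp. Without both tumours of its tag it was 1.14 for Saa1, 1.34 for Saa2, 1.05 for Orm3, 0.881 for Lcn2, 0.330 for Hp and 0.368 for Hpx. Leaving out 1 tumour at a time gave SDs of 1.30 to 2.63 for Saa1, 1.49 to 3.04 for Saa2, 0.762 to 1.09 for Saa3, 0.575 to 0.671 for Saa4, 1.08 to 1.61 for Orm1, 1.49 to 2.02 for Orm2, 1.46 to 1.96 for Orm3, 1.37 to 2.07 for Lcn2, 0.352 to 0.718 for Hp and 0.384 to 0.596 for Hpx. The closest genes were not stable. Of the 5 genes closest to the Saa1 and Saa2 sum, 0 were among the 5 closest without tumour 06 or with Spearman's rho, and of the 3 closest to each other gene or sum, 0 or 1 were. Depth limits Saa3 and Orm3, with as few as 7 and 1 counts. No paired analysis was possible because the tumours form 1 group here and control livers were not analysed.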

Other observations

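Some other positive acute-phase genes are given here as values, picked after these were seen. Fgl1, the gene of a fibrinogen-like liver protein, was at 1102 CPM in tumour 06 and 971 in tumour 05, with a median of 174 over all tumours, and Cd14, the lipopolysaccharide co-receptor, was at 58.6 and 43.1 CPM with a median of 7.04. C3, the central complement gene, was at 19680 CPM in tumour 06 and 11641 in tumour 05, with a median of 10611. For C3, tumour 06 was 1.89-fold above the median of the other 9. Tumour 05 was 1.26-fold above the median of the 8 other than 05 and 06.

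The C/EBP letters found upstream of 8 of 8 acute-phase genes with a window were found for 6 of 17 other positive acute-phase genes (35.3%), 4 of 6 negative ones (66.7%), 1 of 13 genes of the interleukin 6 pathway (7.69%), 1 of 13 of the NF-kB pathway (7.69%) and 0 of 9 partners, against 10.8% of 27025 genes. No test was run on these counts.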
